A study of Mus musculus with 6 samples.

Results

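The 10 genes described here encode non-muscle myosin II, the motor of the actin cytoskeleton, together with the kinase and the phosphatase that act on its light chains. They are the heavy chain genes Myh9, Myh10 and Myh14, the essential light chain gene Myl6, the regulatory light chain genes Myl9, Myl12a and Myl12b, the myosin light chain kinase (MLCK) gene Mylk, and the myosin phosphatase genes Ppp1cb and Ppp1r12a. They were chosen by name and not by their values, though earlier results of these data were known. The table held 23056 distinct gene names on 29606 loci, and all 10 were found. For a name on several loci the longest locus was taken. Only Myh10 needed this choice, and its loci were equal in length, so the one on the annotated strand was used.

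The RNA came from ganglionic eminences (GEs), where cortical interneurons are born, which were dissected from E13.5 mouse embryos. The cells were dissociated with papain and sorted by FACS for the Dlx5,6 CRE GFP transgene, which drives Cre and labels GABAergic cells of the ventral forebrain. All embryos carried this transgene, and they differed at the CCP1 locus, which was Wt/Wt in the 3 WT libraries and lox/lox in the 3 CCP1 cKO libraries. The strain label was MF1 in both groups. The targeted gene, Agtpbp1 (Ccp1), encodes a cytosolic carboxypeptidase that removes glutamates from proteins, and the purpose of the comparison here was to see whether the RNA of the actomyosin genes differed between the genotypes.

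Non-muscle myosin II is a hexamer of a pair of heavy chains, a pair of essential light chains and a pair of regulatory light chains. Phosphorylation of the regulatory light chain by MLCK, a kinase activated by calcium and calmodulin, and by other kinases promotes filament assembly and motor activity, and myosin phosphatase reverses it. In migrating interneurons, contraction of actomyosin behind the nucleus pushes the nucleus forward.

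Expression was given as FPKM, fragments per kilobase of transcript scaled to the size of the library, which can be compared between genes because it is scaled by length. Absolute depth was unknown, and relative depths ranged from 0.722 to 1.13. Values per library are given in the order of replicates 1, 2 and 3. Agtpbp1 checked the labels, although the floxed exons are only a part of its locus and the value counts all of it. Its FPKM were 20.01, 18.9 and 18.1 across WT replicates 1, 2 and 3 and 9.68, 10.1 and 9.56 across CCP1 cKO replicates 1, 2 and 3. All CCP1 cKO libraries were below all WT libraries, at 51.5% of the WT mean (limma on log2(FPKM + 1), log2 fold change -0.89, SE 0.06, adjusted p = 0.00449). Without CCP1 cKO replicate 3 the change was -0.88 with an adjusted p of 0.0585 in limma. All 9 markers of the ventral GABAergic lineage were above 1 FPKM, with Dlx2 at 172.7 FPKM over the 6 libraries. Defining markers of smooth muscle and pericytes (11 genes), endothelium (8), microglia (7) and meninges (6) each had a mean below 1 FPKM, whereas Vim (173.3 FPKM), high in radial glia, and Top2a (149.7 FPKM), which is used in cell division, were abundant. Of red blood cell genes, Hbb-y averaged 11.6 FPKM and the locus shared by Hba-a1 and Hba-a2 7.90 FPKM, with overlapping groups for both.

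The sequences below show the sites on which this system turns. They are from mouse transcripts of GENCODE release M21 on mm10. The first is the end of the Mylk coding sequence, at chr16:35000503-35000532 on the plus strand, in exon 32 of 32 of Mylk-201. It is shown because gene-encoded glutamates at the carboxy terminus are the kind of sequence that CCP1 is known to shorten. The capitals mark 8 GAG glutamate codons, followed by the stop codon in lower case.
Mylk: ggaGAGGAGGAGGAGGAGGAGGAGGAGtga

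The other sequences are from exon 2 of 4 of each regulatory light chain gene, around the threonine and serine that MLCK phosphorylates. They lie at chr2:156778590-156778619 (plus strand) for Myl9, chr17:70996806-70996835 (minus strand) for Myl12a and chr17:70977157-70977186 (minus strand) for Myl12b. The capitals mark the threonine and serine codons, which are codons 19 and 20 counted from the start codon.
Myl9: cagagggctACGTCCaatgtcttcgccatg
Myl12a: cagcgcgcaACCTCCaatgtgttcgccatg
Myl12b: cagcgcgcaACCTCCaatgtgttcgccatg

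The Myl12a and Myl12b windows were identical in all 30 bases. Over the coding sequence of 516 bases, Myl12a and Myl12b shared 498 bases (96.5%), with an identical run of 102 bases, and 168 of 172 codons gave the same residue. The Myl9 coding sequence shared 442 bases (85.7%) with Myl12a and 446 (86.4%) with Myl12b. Fragments from the identical stretches of Myl12a and Myl12b could have been divided between them by the counting, so the level of each is uncertain. Their loci are neighbours and do not overlap.

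The members spanned a wide range of levels in these cells. Myl6 was the most abundant, with a mean of 153.1 FPKM over the 6 libraries, followed by Myl12b (97.4), Ppp1cb (82.8), Myh10 (58.9), Ppp1r12a (26.7), Myl12a (16.9) and Myh9 (6.77 FPKM). Below 1 FPKM were Myl9 (0.533), Mylk (0.270) and Myh14 (0.227 FPKM). Each gene in this order was above the next in 6 of 6 libraries, apart from Myl12b, which was above Ppp1cb in 5 of 6 (difference 14.7 ± 10.03 FPKM, SD, n = 6), and Mylk, which was above Myh14 in 4 of 6. The difference between Mylk and Myh14, 0.0429 ± 0.0653 FPKM (SD, n = 6), was within its spread. Myl6 was above 97.2% of the 13200 loci that averaged at least 1 FPKM and Myh10 above 91.4% of them, whereas Mylk was above only 35.3% of all loci in the table.

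**Figure D1:**
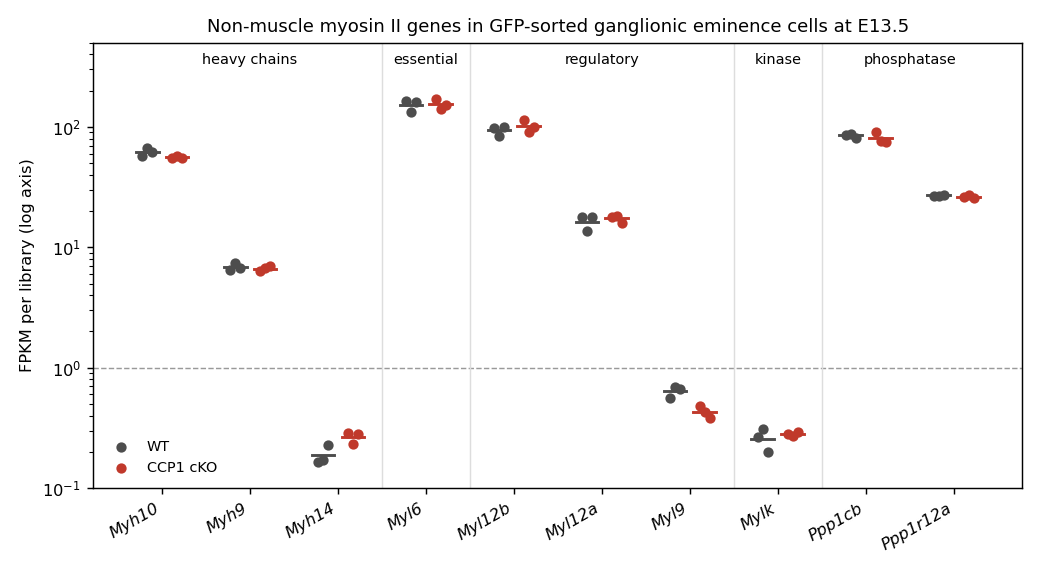
FPKM of the 10 genes in each library on a log axis, grouped by role; points are libraries (grey, 3 WT; red, 3 CCP1 cKO), bars are means and the dashed line is 1 FPKM. The genes spread from Myl6 at 153.1 FPKM to Myh14 at 0.227 FPKM, and only Myl9 and Myh14 have groups that do not overlap.

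For the comparison of the genotypes, limma was fitted on log2(FPKM + 1) to the 13200 loci that averaged at least 1 FPKM, and p-values were adjusted over all of them. Of the 7 members in this fit, 0 passed an adjusted p of 0.05 and 0 had an unadjusted p under 0.05. Over all loci 0.0909% passed, which was 12 loci (5 without CCP1 cKO replicate 3), and 4.62% had an unadjusted p under 0.05. By sign 3 members were higher and 4 were lower in CCP1 cKO (2 and 5 with quantile normalization, which turned Myl6, and 1 and 6 with library weights, which turned Myl6 and Myl12b), where 56.6% of all loci were lower. The median log2 fold change of the 7 was -0.031, beside -0.018 for all loci. Their 95% confidence intervals reached from -0.30 to 0.36 on the log2 scale and that of each of the 7 spanned 0. The groups overlapped for all 7, where 9.8% of all loci at this level did not overlap, 5.81% with CCP1 cKO lower and 3.98% with CCP1 cKO higher.

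**Figure D2:**
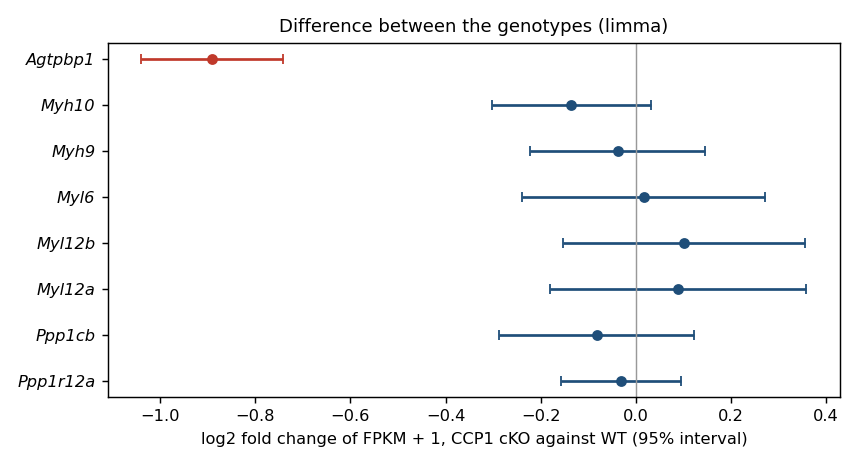
Log2 fold change of FPKM + 1, CCP1 cKO against WT, from limma with 95% confidence intervals, for Agtpbp1 (red) and the 7 genes that averaged at least 1 FPKM (blue). The interval of each myosin II gene spans 0, with estimates from -0.14 (Myh10) to 0.10 (Myl12b), while that of Agtpbp1 lies around -0.89.

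Among the heavy chains, Myh10, which encodes the heavy chain of myosin IIB, predominated. Its locus on mm10 is chr11:68691915-68818848 on the plus strand. Its FPKM were 57.2, 66.3 and 61.9 in WT replicates 1 to 3 and 55.6, 57.3 and 55.2 in CCP1 cKO replicates 1 to 3. WT replicates 2 and 3 were above every CCP1 cKO library, but WT replicate 1 lay among them, so the groups overlapped. The means were 61.8 ± 4.54 and 56.0 ± 1.15 FPKM (SD, n = 3 each), with CCP1 cKO at 90.7% of WT. Myh10 had the smallest unadjusted p of the members, 0.0960, and did not pass the test (limma log2 fold change -0.14, 95% confidence interval -0.30 to 0.03, adjusted p = 0.976).

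A locus with the same coordinates on the opposite strand also carried the name Myh10 and held only 0.341% to 1.198% of its level. The authors' isoform means gave 2 Myh10 isoforms, with 98.7% of the level on the first in WT and 98.3% in CCP1 cKO. The library was stranded, but how strand entered the counting was not stated in the sources.

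Myh9, at chr15:77760589-77842115 on the minus strand, encodes the heavy chain of myosin IIA, the form that is abundant in many non-neuronal cells. It had 6.46, 7.43 and 6.75 FPKM among the WT libraries and 6.31, 6.71 and 6.98 FPKM among the CCP1 cKO libraries. WT replicate 2 was the highest library and CCP1 cKO replicate 1 the lowest, and the other 4 lay in between from both groups. The log2 fold change was -0.038 (limma, 95% confidence interval -0.22 to 0.14, adjusted p = 0.979). Myh10 was 8.70 times as high as Myh9 over the 6 libraries and above it in 6 of 6.

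Myh14, at chr7:44605820-44665503 on the minus strand, encodes the heavy chain of myosin IIC. It had 0.164, 0.171 and 0.228 FPKM among the WT libraries and 0.285, 0.231 and 0.284 FPKM among the CCP1 cKO libraries. The groups did not overlap, though the highest WT value (0.228) and the lowest CCP1 cKO value (0.231 FPKM) nearly met. The mean of CCP1 cKO (0.266 ± 0.0308 FPKM, SD, n = 3) was 142% of that of WT (0.187 ± 0.0352, SD, n = 3), with p = 0.1 in a two-sided exact permutation test, its lowest possible value with 3 against 3 libraries. Myh14 was below the 1 FPKM limit of the fit. Fitted with no limit on low values, it had a log2 fold change of 0.09, which the added 1 FPKM makes smaller than the ratio of the means, and an adjusted p of 0.978 in limma. With 0.1 FPKM added in place of 1, the log2 fold change was 0.35 (95% confidence interval -0.27 to 0.97).

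The heavy chains were also added up in each library. Their sum was 63.8, 73.9 and 68.9 FPKM among the WT libraries and 62.2, 64.3 and 62.4 FPKM among the CCP1 cKO libraries. WT replicate 1 was within the CCP1 cKO range, and the difference of the means (68.9 ± 5.03 against 63.0 ± 1.13 FPKM, SD, n = 3 each) had p = 0.2 in a two-sided exact permutation test. Myh10 made up 89.6%, 89.7% and 89.9% of the sum in WT and 89.4%, 89.2% and 88.4% in CCP1 cKO. All CCP1 cKO shares were below all WT shares, by 0.745 percentage points on average (p = 0.1 in the two-sided exact permutation test, its lowest possible value). CCP1 cKO replicate 3 stood lowest, and without it the difference was -0.431 percentage points. Myh9 made up 9.99% ± 0.167 of the sum in WT and 10.6% ± 0.537 in CCP1 cKO (SD, n = 3 each), and Myh14 0.273% and 0.424%.

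Myl6, the essential light chain that stabilises the lever arm of the heavy chain, had 163.4, 134.0 and 159.4 FPKM among the WT libraries and 169.1, 141.6 and 150.9 FPKM among the CCP1 cKO libraries. Its locus is chr10:128490861-128498924 on the minus strand and also carries Myl6b, a related essential light chain, so the value counts both genes. WT replicate 2 and CCP1 cKO replicate 2 were the lowest of their groups, and the ranges overlapped. The log2 fold change was 0.016 (limma, 95% confidence interval -0.24 to 0.27, adjusted p = 0.994). In the authors' isoform means, the Myl6 isoform held 142.9 FPKM among the WT libraries and 143.6 FPKM among the CCP1 cKO libraries, which was 93.8% and 93.3% of the locus.

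Of the regulatory light chains, Myl12b, at chr17:70973963-70990516 on the minus strand, was the most abundant. It had 97.7, 84.1 and 99.96 FPKM among the WT libraries and 113.1, 90.9 and 98.8 FPKM among the CCP1 cKO libraries. CCP1 cKO replicate 1 was the highest library and WT replicate 2 the lowest, with the other 4 in between from both groups. The log2 fold change was 0.10 (limma, 95% confidence interval -0.15 to 0.36, adjusted p = 0.976).

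Myl12a, at chr17:70993793-71002533 on the minus strand, had 17.7, 13.6 and 17.7 FPKM among the WT libraries and 17.9, 18.3 and 15.9 FPKM among the CCP1 cKO libraries. As for Myl12b, WT replicate 2 was the lowest library, and the groups overlapped. The log2 fold change was 0.088 (limma, 95% confidence interval -0.18 to 0.36, adjusted p = 0.976). Myl12b was 5.78 times as high as Myl12a.

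Myl9, at chr2:156775464-156781657 on the plus strand, encodes the regulatory light chain that is abundant in smooth muscle. It had 0.559, 0.690 and 0.663 FPKM among the WT libraries and 0.481, 0.425 and 0.380 FPKM among the CCP1 cKO libraries. Every CCP1 cKO library was below every WT library. The mean of CCP1 cKO, 0.429 ± 0.0506 FPKM, was 67.3% of that of WT, 0.637 ± 0.0687 FPKM (SD, n = 3 each; p = 0.1 in the two-sided exact permutation test, its lowest possible value). Fitted with no limit on low values, Myl9 had an unadjusted p of 0.0397, where 4.46% of 24573 loci had one under 0.05 and 0.0326% passed the adjustment, and did not pass the adjustment (limma log2 fold change -0.20, 95% confidence interval -0.38 to -0.01, adjusted p = 0.978). With 0.1 FPKM added in place of 1, the interval was -1.17 to 0.21 around -0.48. In all, 2 of the 3 members below 1 FPKM did not overlap, Myl9 downward and Myh14 upward, where 9.56% of the 7636 loci with a mean from 0.1 to 1 FPKM did not overlap, 4.79% downward and 4.77% upward.

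Markers of blood vessel cells, summed by list, were lower in the same libraries as Myl9. The summed level of the 11 smooth muscle and pericyte markers was 1.69 to 2.80 FPKM among the WT libraries and 1.16 to 1.498 FPKM among the CCP1 cKO libraries. The mean was lower in CCP1 cKO for 10 of the 11 and higher for Des. No share of all low loci with a lower mean was taken. Groups did not overlap for 1 of the 11, Lmod1, a smooth muscle actin nucleator. Of loci from 0.1 to 1 FPKM, where Lmod1 lies, 4.79% were lower without overlap, but many of the 11 averaged below 0.1 FPKM. Pdgfrb, the highest of the 11, overlapped. Tagln, a smooth muscle actin-binding protein, had 0.395, 0.560 and 0.734 FPKM among the WT libraries and 0.473, 0.408 and 0.346 FPKM among the CCP1 cKO libraries, so its groups overlapped. Acta2, smooth muscle actin, was listed at 0 in 5 libraries and at 0.0720 FPKM in WT replicate 1, and Myh11, the smooth muscle heavy chain, had a mean of 0.0378 FPKM. The summed level of the 8 endothelial markers was 1.10 to 1.85 FPKM among the WT libraries and 0.508 to 0.782 FPKM among the CCP1 cKO libraries. Groups did not overlap for 5 of the 8, each lower in CCP1 cKO, while Emcn had a higher mean. Of the 5, Cldn5 and Kdr averaged over 0.1 FPKM, where the same 4.79% applies. Pecam1, at 0.222 FPKM, had overlapping groups. For genes below 0.1 FPKM no such share was taken. Cldn5, a tight junction protein of endothelium, had means of 0.518 FPKM (WT) and 0.129 FPKM (CCP1 cKO), and Kdr, the receptor of VEGF, 0.328 and 0.155 FPKM. A lower mean in CCP1 cKO was also found for 6 of 7 microglia markers and 4 of 6 meninges markers. The exception in microglia was Aif1, the highest of the 7, with means of 0.0959 FPKM (WT) and 0.260 FPKM (CCP1 cKO). Aif1 was higher without overlap, as were 4.77% of loci from 0.1 to 1 FPKM, and Cx3cr1 was lower without overlap. In meninges, Col1a2, the highest, had means of 0.233 FPKM (WT) and 0.328 FPKM (CCP1 cKO) and overlapped. Foxc1 was lower without overlap. The 3 red blood cell genes on their own locus had lower means in CCP1 cKO. The part of blood vessel cells in the Myl9 values was not tested. In sorted bulk RNA, fewer cells of a type and less RNA per cell cannot be told apart.

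**Figure D3:**
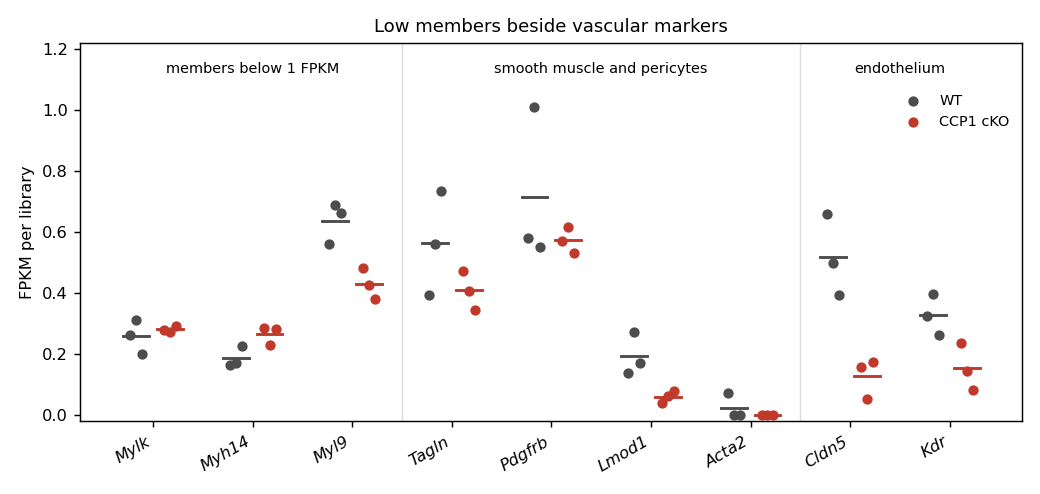
FPKM per library on a linear axis of the 3 members below 1 FPKM and of 6 markers of smooth muscle and pericytes or endothelium; points are libraries (grey, 3 WT; red, 3 CCP1 cKO) and bars are means. Myl9, Lmod1, Cldn5 and Kdr lie lower in all CCP1 cKO libraries, Myh14 lies higher, and Mylk, Tagln, Pdgfrb and Acta2 overlap. Other markers are not shown, among them Pecam1, which overlaps, and Emcn and Des, with higher means in CCP1 cKO.

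The regulatory light chains were added up in the same way. Because FPKM divides by length, and the transcripts Myl12a-201 and Myl12b-201 have 980 and 2143 bases, this sum also depends on how their shared fragments were divided. It was 116.0, 98.4 and 118.3 FPKM among the WT libraries and 131.5, 109.6 and 115.0 FPKM among the CCP1 cKO libraries. The groups overlapped, with means of 110.9 ± 10.9 and 118.7 ± 11.4 FPKM (SD, n = 3 each; two-sided exact permutation test, p = 0.6). Myl12b made up 84.7% ± 0.636 of the sum in WT and 84.9% ± 1.74 in CCP1 cKO (SD, n = 3 each). The share of Myl9 was 0.482%, 0.701% and 0.560% in WT and 0.366%, 0.388% and 0.331% in CCP1 cKO. All CCP1 cKO shares were below all WT shares (p = 0.1 in the two-sided exact permutation test, its lowest possible value), yet Myl9 was under 1% of the regulatory light chain RNA in every library.

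**Figure D4:**
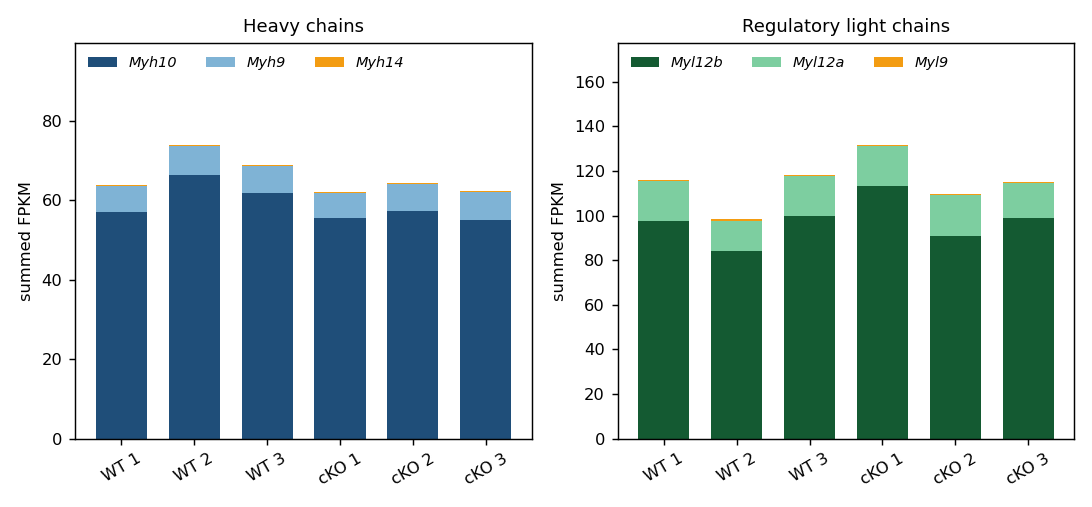
Summed FPKM of the heavy chain genes (left) and of the regulatory light chain genes (right) in each of the 6 libraries, as stacked bars from 0. Myh10 and Myl12b fill most of every bar, and Myh14 and Myl9 are barely visible.

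The balance of the subunits was compared as a ratio of the sums. The regulatory light chain to heavy chain ratio was 1.82, 1.33 and 1.72 in WT and 2.11, 1.70 and 1.84 in CCP1 cKO. WT replicate 2 was the lowest and CCP1 cKO replicate 1 the highest, and the groups overlapped (1.62 ± 0.257 against 1.89 ± 0.208, SD, n = 3 each; two-sided exact permutation test, p = 0.3). The ratio of Myl6 to the heavy chains was 2.23 ± 0.381 in WT and 2.45 ± 0.258 in CCP1 cKO (SD, n = 3 each). The ratio of Myl6 to the regulatory light chains was 1.41, 1.36 and 1.347 in WT and 1.29, 1.29 and 1.31 in CCP1 cKO. All CCP1 cKO values were below all WT values for this ratio, which was not among the ratios chosen for a test and is given as a description.

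Mylk, at chr16:34784950-35002434 on the plus strand, was among the lowest members. It had 0.264, 0.311 and 0.200 FPKM among the WT libraries and 0.279, 0.272 and 0.293 FPKM among the CCP1 cKO libraries. The WT libraries were both the highest and the lowest, and all 3 CCP1 cKO libraries lay between them. The means were 0.258 ± 0.0558 FPKM among the WT libraries and 0.281 ± 0.0102 FPKM among the CCP1 cKO libraries (SD, n = 3 each), with p = 0.7 in a two-sided exact permutation test. Without WT replicate 3, the lowest library, the difference turned from 0.0232 to -0.00609 FPKM. Fitted with no limit on low values, the log2 fold change was 0.03 (limma, 95% confidence interval -0.10 to 0.15, adjusted p = 0.978), and with 0.1 FPKM added in place of 1 the interval widened to -0.56 to 0.76 around 0.10. No difference in Mylk was detected. The authors' table listed 1 isoform for the locus, so forms of the kinase could not be compared.

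Other kinases known to phosphorylate the regulatory light chain, or related to those that do, lay on either side of Mylk. Of 12 such genes, 2 shared a locus with another gene. Another 4, Mylk2 (listed at 0 in all libraries), Mylk3 (0.0179 FPKM), Dapk2 (0.0411 FPKM) and Mylk4 (0.0490 FPKM), had lower means than Mylk, so Mylk was the highest of the Mylk genes. The remaining 6 averaged at least 1 FPKM, and each was above Mylk in 6 of 6 libraries. Dapk1, a death-associated protein kinase, was the highest of these at 35.8 FPKM, or 133 times the level of Mylk. The kinase genes Rock1 and Rock2 had 16.6 and 15.7 FPKM, 61.3 and 58.2 times Mylk. The ratio of the summed regulatory light chains to Mylk lay between 317 and 593 in the 6 libraries. These are RNA levels and give no measure of kinase protein or activity.

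Of the phosphatase genes, Ppp1r12a encodes the targeting subunit that brings the enzyme to myosin. Its locus is chr10:108161560-108279679 on the plus strand. It had 26.9, 26.9 and 27.2 FPKM among the WT libraries and 26.4, 27.2 and 25.6 FPKM among the CCP1 cKO libraries. It was the steadiest member, with a coefficient of variation of 2.24% over the 6 libraries, and the groups overlapped. The log2 fold change was -0.031 (limma, 95% confidence interval -0.16 to 0.10, adjusted p = 0.976). Of its 3 isoforms in the authors' means, the first held 90.3% of the level in WT and 88.9% in CCP1 cKO.

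Ppp1cb, at chr5:32458107-32495788 on the plus strand, encodes the catalytic subunit of myosin phosphatase. It had 86.2, 87.3 and 81.6 FPKM among the WT libraries and 90.0, 76.6 and 74.9 FPKM among the CCP1 cKO libraries. The CCP1 cKO libraries lay on either side of the WT range. The log2 fold change was -0.083 (limma, 95% confidence interval -0.29 to 0.12, adjusted p = 0.976). The other catalytic subunits of protein phosphatase 1, which also serve many other complexes, were higher, with Ppp1cc at 165.1 FPKM and Ppp1ca at 127.1 FPKM, each above Ppp1cb in 6 of 6 libraries. Ppp1cb made up 20.6% to 24.9% of the summed catalytic subunits.

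The ratio of Ppp1r12a to Ppp1cb was 0.312, 0.308 and 0.333 in WT and 0.293, 0.355 and 0.342 in CCP1 cKO. The WT values lay within the CCP1 cKO range (0.318 ± 0.0137 against 0.330 ± 0.0327, SD, n = 3 each; two-sided exact permutation test, p = 0.6). Ppp1r12a was the highest of the related targeting subunit genes in 6 of 6 libraries, at 42.5% to 47.1% of the summed level of Ppp1r12a, Ppp1r12b and Ppp1r12c.

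Genes around these members were taken as 5 lists with 62 genes, covering other light chain kinases, phosphatase partners, upstream activators, filament partners and muscle myosins. Of these, 4 shared a locus with another gene, among them Dapk3, and 36 of the rest averaged at least 1 FPKM. Of the 36, 0 passed an adjusted p of 0.05 in limma in either direction and 0 had an unadjusted p under 0.05, beside 0.0909% and 4.62% over all loci. By sign 22 were lower and 14 higher in CCP1 cKO, where 56.6% of all loci were lower. The median log2 fold change of the 36 was -0.039, beside -0.018 for all loci. The range was from -0.24 for Cit, the citron kinase of cytokinesis, to 0.11 for Dapk1, and the interval of each spanned 0.

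The medians by list were -0.093 for 6 light chain kinases, 0.0053 for 6 phosphatase partners, -0.016 for 11 upstream activators and -0.057 for 12 filament partners. Ppp1r14b, an inhibitor of phosphatase 1, led the phosphatase partners at 256.4 FPKM, and Calm2, which encodes the calmodulin that activates MLCK, led the activators at 433.4 FPKM. Actb, cytoplasmic actin, had 2617 FPKM. The only muscle myosin gene above 1 FPKM was Mylpf, the regulatory light chain of fast skeletal muscle, at 1.72 FPKM, and 15 others on their own locus were below.

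**Figure D5:**
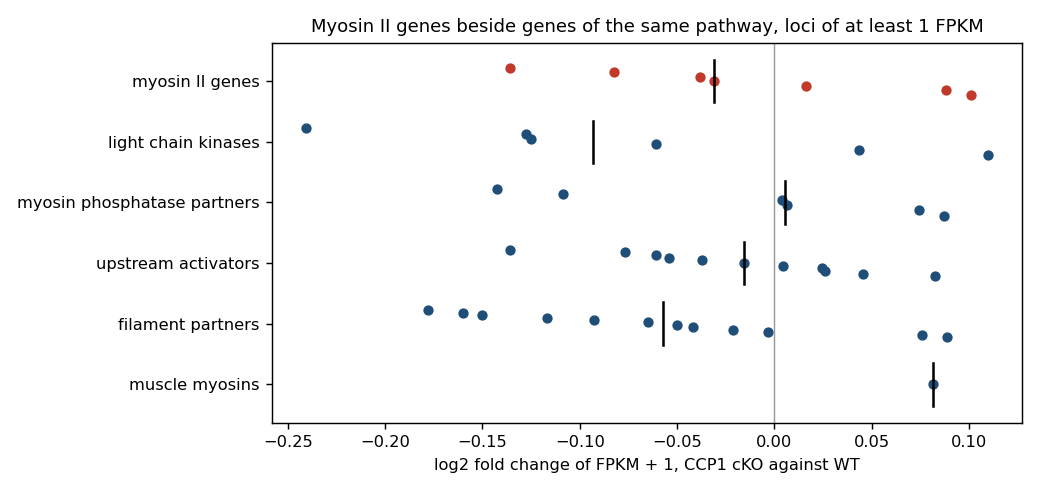
Log2 fold change of FPKM + 1 in CCP1 cKO against WT (limma) for the 7 myosin II genes tested (red) and the 36 tested genes of the 5 pathway lists (blue), with each median as a black bar. The myosin II genes lie between -0.14 and 0.10 and the pathway genes between -0.24 and 0.11.

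A few pathway genes had groups that did not overlap, and are named after their values were seen. Mprip, a scaffold that binds Ppp1r12a and actin, had 41.1 ± 1.63 FPKM among the WT libraries and 37.8 ± 0.990 FPKM among the CCP1 cKO libraries (SD, n = 3 each). Actn1, the actin crosslinker alpha-actinin, had 4.46 ± 0.180 and 3.83 ± 0.116 FPKM (SD, n = 3 each). These were 2 of the 36, beside 9.8% of all loci at this level. Each had p = 0.1 in the two-sided exact permutation test, its lowest possible value.

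Among the 22 pathway genes below 1 FPKM, 1 did not overlap. The share over all loci from 0.1 to 1 FPKM was 9.56%. Many of the 22 averaged below 0.1 FPKM, some at 0 in every library, so this share is no measure for the 22 as a set. The gene without overlap was Ppp1r14a, which encodes CPI-17, an inhibitor of myosin phosphatase known from smooth muscle. It had 0.334, 0.255 and 0.109 FPKM among the WT libraries and 1.18, 0.933 and 1.31 FPKM among the CCP1 cKO libraries. All CCP1 cKO libraries were above all WT libraries, and the ratio of the means was 4.90 (p = 0.1 in the two-sided exact permutation test, its lowest possible value). Fitted with no limit on low values, it had an unadjusted p of 0.000395, where 4.46% of all loci had one under 0.05, and did not pass the adjustment (limma log2 fold change 0.80, adjusted p = 0.281). The share of loci with a p as low as its own was not taken. The level of Ppp1r14a in CCP1 cKO, 1.14 FPKM, was far below that of Ppp1r14b.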

How the data were processed

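RNA of FACS-sorted cells was purified with RNeasy columns and made into rRNA-depleted, stranded, paired-end libraries. The authors aligned the reads to mm10 with Bowtie2 in the Tuxedo workflow, and Cuffdiff gave the deposited FPKM per library. Annotation and program versions were not given in the sources used here, nor were read numbers. The deposited isoform table holds 1 mean FPKM per genotype with some decimal points lost, which were restored for the members from the sum over isoforms (within 0.01 FPKM). Its values are the authors' means, with no spread. A deposited table of the authors' own comparison, with fold changes, p-values and q-values, was not used.

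Columns were joined to samples by name. The methods include male and female embryos, and legends give 3 embryos per group from independent females. Whether each library is 1 embryo is not stated, so p-values measure the spread between libraries. The numbering of loci gave their strand, which matched GENCODE M21 at 99.96% of 19026 loci, and 1 was added to each start. The log2 fold changes came from limma 3.58.1 in R 4.3.3 (lmFit, eBayes with a trend) on log2(FPKM + 1), which understates changes of low genes, with Benjamini-Hochberg adjustment over loci that averaged at least 1 FPKM. The fit was checked on simulated libraries, each set with 200 changed loci. For single values, exact permutation tests over libraries (two-sided) were used. Python 3.11.15, pandas 2.3.3, NumPy 2.4.6, Biopython 1.88 and Matplotlib 3.10.9 did the rest. Sums of FPKM were 447510 to 542953 per library, of which the 10 highest loci held 13.2% to 28.3%. Relative depth came from the ratios of values below 0.1 FPKM.

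The members and the gene lists were chosen with earlier results of these data known. Genes named are the 10 members, Agtpbp1, the highest gene of each pathway list, any pathway gene with an unadjusted p under 0.05, the 1 or 2 highest genes of a marker list, and genes that the text says were named after their values were seen. Cit, Rock1, Rock2, Ppp1ca, Ppp1cc, Lmod1, Tagln, Acta2, Myh11, Des, Cldn5, Kdr and Emcn were also named with values seen. So were Mylk2, Mylk3, Mylk4, Dapk2, Dapk3, Myl6b, Ppp1r12b, Ppp1r12c, Pecam1, Cx3cr1 and Foxc1. Alternatives were pseudocounts of 0.1 and 0.5, no limit or a mean of at least 5 FPKM, rescaling to equal sums, quantile normalization, equal medians, library weights, a fit without a trend, replicate number as block, leaving out each library, and summing all loci of a gene. No limit together with 0.1 FPKM was added after seeing the data.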

Additional observations from a re-analysis of the deposited data

How the results depend on the processing

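Of 264 values under alternatives, 251 were labelled as unchanged. Of the rest, 9 turned direction, 1 fold change lost its call and 3 counts of loci that passed moved. Counts were labelled as unchanged when they stayed within a fixed ratio of the main count, and no direction was compared. The exact tests could not give a p under 0.05 with so few libraries, so their values could change in direction only. No member passed in the main setting or the 17 alternatives of the limma fit, where the smallest adjusted p of a member was 0.711. The number of loci that passed was 12, with 29 after rescaling to equal sums and 24 with library weights, and 5 to 16 with each library left out (5 without CCP1 cKO replicate 3). Leaving out each library gave a Mylk difference of -0.00609 to 0.0495 FPKM, a difference in the Ppp1r12a to Ppp1cb ratio of -7.3e-06 to 0.0310, and log2 fold changes of -0.077 to 0.011 for Myh9, -0.073 to 0.074 for Myl6 and -0.030 to 0.15 for Myl12a. For members that kept their sign it gave 0.017 to 0.17 for Myl12b, -0.16 to -0.034 for Ppp1cb, -0.19 to -0.085 for Myh10 and -0.052 to -0.011 for Ppp1r12a. Myl6 also turned to -0.032 with quantile normalization and -0.086 with library weights, and Myl12b to -0.013 with library weights. The causes were not tested. Agtpbp1 passed in 16 of 17 alternatives and not without CCP1 cKO replicate 3 (-0.88, limma adjusted p = 0.0585). Deviations of same-numbered libraries correlated at 0.32, 0.11 and 0.036 for replicates 1, 2 and 3. Those of differently numbered libraries correlated at -0.26 to 0.17, so only replicate 1 stood above them. The numbers were not taken to pair the samples, and a shared effect of replicate 1 was not tested. With the replicate number as a block 16 loci passed, with 0 members among them. Absolute depth is unknown, so no counting error can be given for the 3 members below 1 FPKM.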
